A study of Rattus norvegicus with 16 samples.

Results

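The mir-26 pair comprises the rat hairpins rno-mir-26a and rno-mir-26b (below mir-26a and mir-26b), which were taken by their hairpin names, 2 of the 392 hairpins with reads in the data. Small RNA was sequenced from the whole heart, kidney, testis, spleen, liver and brain of male adults of the BN-Lx and SHR strains, with 1 library for each tissue and strain, 12 libraries in all, here called the tissue set. BN-Lx is an inbred Brown Norway strain that carries the Lx mutation, and SHR is the spontaneously hypertensive rat, a second inbred strain. A further 4 livers, replicates 2 and 3 of each strain, were sequenced as well, so that liver holds 3 libraries for each strain. No group carries a treatment or transgene, and no pooling of animals is stated. By the study's methods the 6 tissues of a strain came from 1 rat, so the 12 libraries of the tissue set come from 2 animals, and the livers of a strain come from 3 rats.

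A microRNA hairpin is cut into a short duplex, of which 1 strand, here called the 5p or the 3p arm, is retained by an Argonaute protein and guides it to messenger RNAs. The seed, bases 2 to 8 of the mature strand, sets most of the pairing with the target. The mir-26 hairpins lie within introns of the genes for small phosphatases of the RNA polymerase C-terminal domain, and mir-26a is known for repressing Ezh2, a histone methyltransferase, and for its loss in liver tumours. By RefSeq annotation of the rat (assembly GRCr8), mir-26a lies inside Ctdspl and mir-26b inside Ctdsp1, on different chromosomes.

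The mature sequences below, from RefSeq (GRCr8), show what the 2 hairpins share and where their reads can be told apart. Capitals mark the seed.
rno-miR-26a-5p: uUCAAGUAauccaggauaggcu
rno-miR-26b-5p: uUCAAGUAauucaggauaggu
rno-miR-26a-3p: cCUAUUCUugguuacuugcac
rno-miR-26b-3p: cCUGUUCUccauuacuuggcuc
Both 5p arms carry the seed UCAAGUA, and among 724 mature rat miRNAs in RefSeq no other does. Over the first 21 bases they differ by C11U and C21U, written with the base of mir-26a-5p first and counted from 1 at the 5′ end. The 3p arms have different seeds, CUAUUCU and CUGUUCU. The hairpins, of 90 and 85 nt, share no stretch longer than 11 nt, and no read of either member was divided between hairpins at any of the 507 positions listed for them. The reads of mir-26a and mir-26b were therefore counted apart in every library.

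Outside testis the tissue set held between 403453 and 1064894 miRNA reads a library, but testis held only 26880 and 29131, so values from testis are the least precise. The further livers held between 1167607 and 3229461 reads. Of 22 tissue marker miRNAs, 18 were higher in the labelled tissue than in any other tissue. The exceptions were 4 of the 5 kidney markers, whose summed share was 8.14% to 10.2% in kidney and up to 15% elsewhere. Testis and the SHR liver of the tissue set had been amplified with more PCR cycles than the other libraries, and the part of this in the results was not tested. These are whole tissues, in which fewer cells of a type and less RNA per cell cannot be told apart.

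mir-26a-5p was abundant in every tissue. In brain it gave 20680 reads (BN-Lx) and 9046 (SHR), and there were 4911 and 5199 in liver, 8204 and 5103 in spleen, 6049 and 10011 in heart, 219 and 238 in testis, and 10958 and 9365 in kidney, with BN-Lx first in each pair. These reads made up 1.94% and 1.05% of the brain libraries and 0.815% and 0.817% of the testis libraries. mir-26b-5p, its seed partner, gave fewer reads than mir-26a-5p in all 16 libraries. It gave 1528 and 898 reads in brain, 1687 and 1817 in liver, 2441 and 1487 in spleen, 1427 and 1991 in heart, 53 and 67 in testis, and 2582 and 2843 in kidney. Brain had the smallest share of mir-26b-5p, 0.143% of the library in BN-Lx and 0.104% in SHR, below the 0.197% to 0.475% of the other 10 libraries of the tissue set.

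Levels were also expressed in multiples of the ocm, the outlier-corrected mean, which is the mean read number over the arms of known miRNA loci in a library after the 3 highest are left out. On this scale mir-26a-5p was 11.3 ± 4.58 in brain (SD, n = 2), 13.5 ± 0.402 in heart, 13.6 ± 3.17 in kidney, 12.4 ± 0.132 in liver, 9.45 ± 0.230 in spleen and 6.90 ± 0.122 in testis. mir-26b-5p was 0.939 ± 0.194 in brain, 2.93 ± 0.266 in heart, 3.59 ± 0.201 in kidney, 4.29 ± 0.00650 in liver, 2.78 ± 0.109 in spleen and 1.80 ± 0.161 in testis. The brain values of mir-26a-5p, 14.6 in BN-Lx and 8.08 in SHR, lay within the range of the other tissues, whereas both brain values of mir-26b-5p, 1.08 and 0.802, were below all others.

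**Figure D1:**
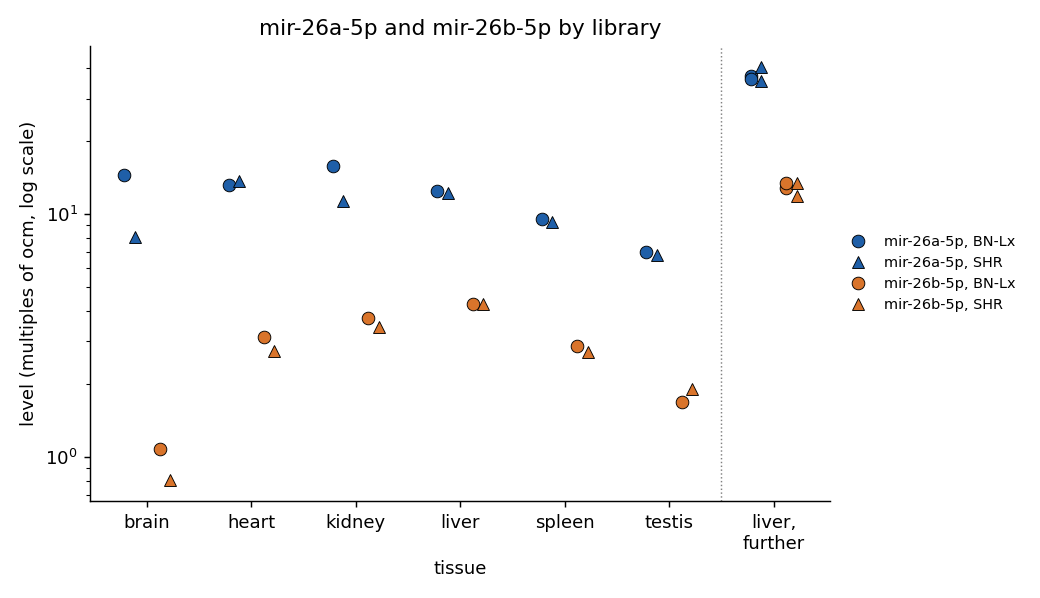
Level of mir-26a-5p (blue) and mir-26b-5p (orange) in each library, in multiples of the ocm on a log axis, by tissue, with circles for BN-Lx and triangles for SHR; the 4 further livers stand to the right of the dotted line. In brain mir-26b-5p lay at 0.802 and 1.08, under every other library, and both arms were highest in the further livers.

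The quasi-likelihood test of edgeR was run over the 12 libraries to compare tissues, taking the 2 strains as replicates, and 457 arms were tested. Each p is adjusted by the Benjamini-Hochberg method over all arms tested, and those of single log2 differences are two-sided. Both 5p arms differed among tissues (adjusted p = 0.00106 for mir-26a-5p and 0.000227 for mir-26b-5p), as did 83.4% of all arms. For mir-26a-5p the call was lost when scaled by the ocm (adjusted p = 0.101) and without both testis libraries (adjusted p = 0.052). The span between the highest and the lowest tissue mean was 2.20 on the log2 scale for mir-26a-5p and 2.79 for mir-26b-5p, against a median of 4.09 over the 457 arms. In order from the most even arm, mir-26a-5p stood at place 56 and mir-26b-5p at place 110. The spans ran from heart to testis for mir-26a-5p and from liver to brain for mir-26b-5p. In the fit scaled by the ocm, heart minus testis was 0.97 for mir-26a-5p and brain minus liver was -2.20 for mir-26b-5p. Spans and places of all arms were not worked out under another scaling.

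The largest departure of either arm from the other tissues was that of mir-26b-5p in brain. It was lower there than the mean of the other 5 tissues by a log2 difference of -2.11 (SE 0.35, adjusted p = 0.000229), a 4.31-fold lower level, and 23.0% of all arms were called lower in brain. mir-26a-5p differed by -0.41 in the same comparison (SE 0.26, adjusted p = 0.199). The value of mir-26a-5p in brain depended on the scaling, with 0.037 when scaled by the ocm and 0.29 by total reads, and neither was called. Without both testis libraries mir-26a-5p was called lower in brain, at -0.88 (adjusted p = 0.0117), and mir-26b-5p was then at -2.59. The value of mir-26b-5p lay between -2.59 and -1.42 under all alternatives that kept all libraries or left out both testis libraries, and it was called under each. Over all arms the median brain difference was 0.46, which another scaling or tool raised by up to 0.73. Of all arms 178 were called higher and 105 lower in brain, or 214 and 70 when scaled by total reads.

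In testis both arms were lower than in the other tissues, mir-26a-5p by a log2 difference of -1.74 (SE 0.29, adjusted p = 0.000562) and mir-26b-5p by -1.48 (SE 0.34, adjusted p = 0.0066), with 13.1% of all arms called lower. These rest on 219 and 238 reads of mir-26a-5p and on 53 and 67 reads of mir-26b-5p. The median testis difference over all arms, -0.87, rose by 0.36 with RLE factors, 0.98 with the ocm and 1.04 with total reads, and by 1.17 with DESeq2. Scaled by the ocm, mir-26a-5p in testis was at -0.78 and still called, while mir-26b-5p was at -0.52 (adjusted p = 0.270). Scaled by total reads, neither was called, at -0.73 (adjusted p = 0.0591) and -0.46 (adjusted p = 0.342). Without the BN-Lx testis library mir-26b-5p was at -1.19 (adjusted p = 0.108). The calls of all arms in testis were 51 higher and 60 lower, but 99 and 23 when scaled by the ocm.

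In liver mir-26b-5p was higher than in the other 5 tissues by 1.25 (SE 0.27, adjusted p = 0.00646), where 13.8% of all arms were called higher, and mir-26a-5p was at 0.51 (SE 0.24, adjusted p = 0.158), a value that DESeq2 called (0.50, adjusted p = 0.034). Scaled by total reads, the liver values were 0.45 for mir-26b-5p and -0.30 for mir-26a-5p, with no call for either. The call for mir-26b-5p was also lost without the BN-Lx liver (adjusted p = 0.0574) or the SHR liver (adjusted p = 0.105). Over all livers, the further ones included, mir-122, the liver marker, took 34.4% to 49.7% of the reads. Its part in the liver values was not tested. These liver values come from the livers of the tissue set alone, and both arms had higher ocm levels in the further livers. In heart mir-26a-5p was called higher (0.89, SE 0.24, adjusted p = 0.0174), as were 12.7% of all arms, and mir-26b-5p had a similar value that was not called (0.82, SE 0.28, adjusted p = 0.0625). In kidney mir-26b-5p was called higher (0.90, SE 0.28, adjusted p = 0.0374), as were 15.5% of all arms, and mir-26a-5p was not (0.61, SE 0.24, adjusted p = 0.0856). The heart call of mir-26a-5p was lost when scaled by the ocm or total reads (0.38 each) and without both testis libraries (0.55). The kidney call of mir-26b-5p was lost with the ocm (0.66), RLE factors (0.63), no expression filter (0.92) and without both testis libraries (0.65). DESeq2 kept both calls and also called mir-26b-5p in heart (0.64, adjusted p = 0.000564). Single libraries changed these calls too. The heart call of mir-26a-5p was lost without BN-Lx heart (adjusted p = 0.0722), SHR heart (0.372) or SHR spleen (0.0515), and mir-26b-5p in heart gained a call without SHR kidney (0.0335) or SHR testis (0.0473). The kidney call of mir-26b-5p was lost without BN-Lx heart, kidney or liver and without SHR brain, heart, kidney or spleen, with adjusted p between 0.0503 and 0.145. In spleen neither arm was called, at 0.15 for mir-26a-5p and 0.62 for mir-26b-5p. The split of all calls into higher and lower also moved with the scaling in these tissues, from 58 and 31 to 45 and 64 in heart and from 63 and 55 to 34 and 102 in liver by total reads, and from 71 and 32 to 49 and 38 in kidney and from 84 and 49 to 58 and 58 in spleen by the ocm.

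**Figure D2:**
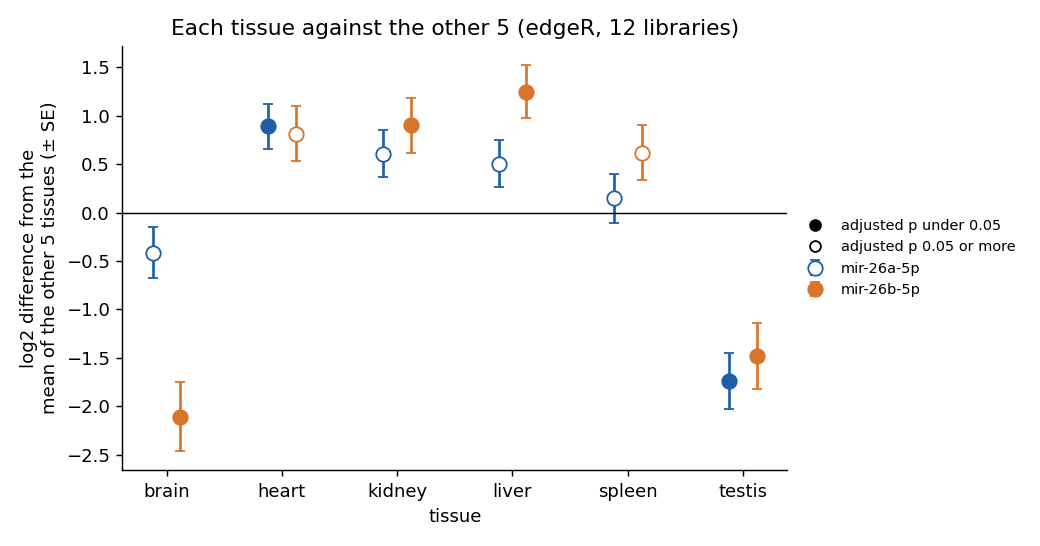
Log2 difference of each tissue from the mean of the other 5, from the edgeR fit of 12 libraries, for mir-26a-5p (blue) and mir-26b-5p (orange), with bars of 1 SE; filled points have an adjusted p under 0.05. In brain the arms lay apart, at -0.41 and -2.11, whereas in testis both were low, at -1.74 and -1.48.

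By fitted level the order of tissues for mir-26a-5p was heart, kidney, liver, spleen, brain and testis. Among neighbours in this order only brain and testis differed, by 1.11 (SE 0.33, adjusted p = 0.0156), where 26.0% of all arms were called higher in brain than in testis. For mir-26b-5p the order was liver, kidney, heart, spleen, testis and brain, and among neighbours only spleen and testis differed, by 1.75 (SE 0.41, adjusted p = 0.00699), with 16.2% of all arms called higher in spleen. When scaled by the ocm both of these differences lost their call, at 0.68 (adjusted p = 0.114) and 0.62 (adjusted p = 0.308). mir-26a-5p in brain was also below heart by -1.09 (SE 0.33, adjusted p = 0.0146) and below kidney by -0.85 (SE 0.33, adjusted p = 0.0399), and both calls were lost when scaled by the ocm, which placed brain above spleen by 0.23. mir-26b-5p in brain was below heart by -2.44, kidney by -2.51, liver by -2.80 and spleen by -2.27, with adjusted p between 0.00012 and 0.000505 and with 22.1%, 25.8%, 24.9% and 24.5% of all arms called lower in brain. These 4 differences were also called when scaled by the ocm. Against testis the brain value was -0.52 (SE 0.40, adjusted p = 0.305). The place of liver in both orders rests on the livers of the tissue set alone. In multiples of the ocm, mir-26a-5p was at 35.3 to 40.6 in the further livers, against 6.81 to 15.8 in the tissue set. For mir-26b-5p these ranges were 11.9 to 13.4 and 0.802 to 4.29.

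The ratio of mir-26a-5p to mir-26b-5p within a library needs no scaling, since both numbers come from the same reads. For brain it stood at 13.5 in BN-Lx (95% interval 12.8 to 14.3) and at 10.1 in SHR (9.40 to 10.8). In the other 10 libraries of the tissue set it was 2.91 and 2.86 in liver, 3.36 and 3.43 in spleen, 4.24 and 5.03 in heart, 4.13 and 3.55 in testis, and 4.24 and 3.29 in kidney, again with BN-Lx first. The 2 brain libraries were the highest by far, and the next was SHR heart. Intervals are exact and cover counting error only, since reads were not tagged by molecule.

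On the log2 scale the mean ratio ran from 1.53 ± 0.02 in liver (SD, n = 2) over 1.76 ± 0.02 in spleen, 1.90 ± 0.26 in kidney, 1.94 ± 0.15 in testis and 2.21 ± 0.17 in heart to 3.55 ± 0.30 in brain. In an exact permutation test of tissue labels within each strain (720 arrangements, smallest p 0.00139), the ratio differed among tissues with p = 0.0139. Adjusted over the 6 exact tests made here, p was 0.0278. Liver and brain lay 2.02 apart on the log2 scale. Without both brain libraries, a setting chosen after seeing the data, the span fell to 0.68 and p was 0.0833, and an exact permutation test of the 5 other tissues has 120 arrangements. The exact permutation p was 0.0722 without the BN-Lx liver library of the set, with a span of 2.03.

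**Figure D3:**
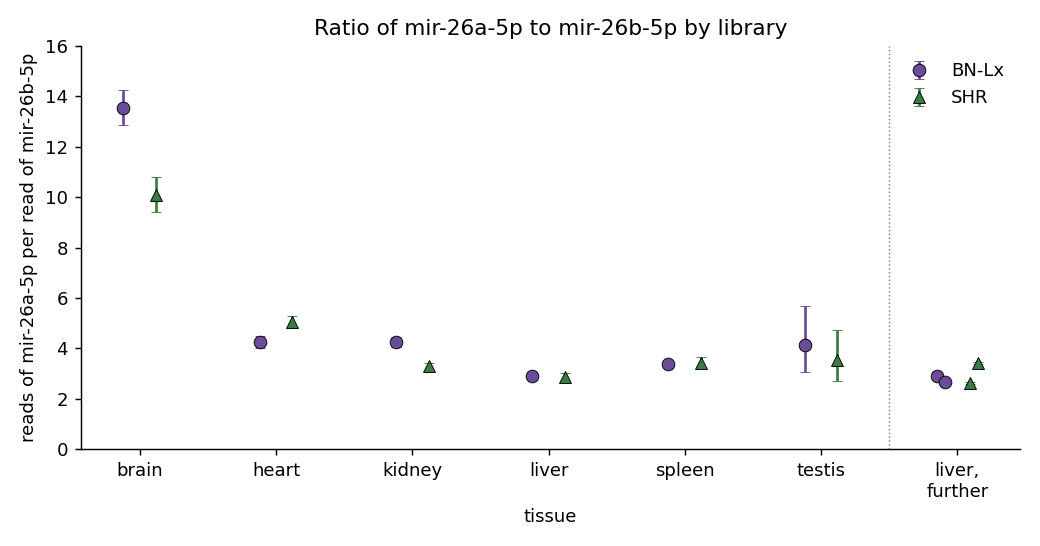
Reads of mir-26a-5p for each read of mir-26b-5p in each library on a linear axis, by tissue, with exact 95% intervals for counting error, circles for BN-Lx and triangles for SHR; the further livers stand to the right of the dotted line. Brain lay at 10.1 and 13.5, and the other 14 libraries between 2.63 and 5.03.

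Neither 5p arm was called between the strains. Over the tissue set, edgeR called 0 of 457 arms between SHR and BN-Lx (0%), with 8 arms at an unadjusted p under 0.05, and DESeq2 called 0, with 18 such arms. mir-26a-5p was at -0.24 (SE 0.19, adjusted p = 0.998, SHR minus BN-Lx) and mir-26b-5p at -0.12 (SE 0.23, adjusted p = 0.998). The log2 ratio of the arms differed between strains by a mean of -0.13 over 6 tissue pairs, with p = 0.344 in an exact permutation test by sign flips (adjusted p = 0.412), a test whose smallest p is 0.0312. The 6 pairs set 1 BN-Lx rat against 1 SHR rat, as does the edgeR strain term, so that strain and individual cannot be told apart in the tissue set. Brain had the largest gap in mir-26a-5p, with an ocm level of 14.6 in BN-Lx against 8.08 in SHR, but each strain has only 1 brain library.

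Liver was the tissue with 3 libraries for each strain, and the further livers gave 34960 and 29708 reads of mir-26a-5p (BN-Lx) and 77974 and 91563 (SHR). For mir-26b-5p the BN-Lx livers gave 12033 and 11098 reads and the SHR livers 29619 and 26777. In multiples of the ocm, BN-Lx livers 1 to 3 had mir-26a-5p at 12.5, 37.2 and 36.0, and SHR livers 1 to 3 at 12.3, 35.3 and 40.6. The same livers had mir-26b-5p at 4.28, 12.8 and 13.4 (BN-Lx) and at 4.29, 13.4 and 11.9 (SHR). Every further liver was above both first livers, and the strains overlapped. edgeR called 0 of 271 arms between the strains in liver (0%), with 6 arms at an unadjusted p under 0.05, and DESeq2 called 0, with 9 such arms. mir-26a-5p was at 0.12 (SE 0.67, adjusted p = 0.995) and mir-26b-5p at 0.03 (SE 0.66, adjusted p = 0.995). Within the 4 further livers alone the SE was smaller and the values were 0.20 (SE 0.18, adjusted p = 0.681) and 0.10 (SE 0.16, adjusted p = 0.856).

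The ratio of the arms in liver did not follow the set. It was 2.91, 2.91 and 2.68 in BN-Lx livers 1 to 3 and 2.86, 2.63 and 3.42 in SHR livers 1 to 3, so the first livers lay inside the range of the further ones. The mean ratio was 2.83 ± 0.134 in BN-Lx and 2.97 ± 0.405 in SHR (SD, n = 3), and on the log2 scale SHR was higher by 0.06, with p = 0.9 in an exact permutation test whose smallest p is 0.1. The sign of this difference turned without SHR liver 3, at -0.044.

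Both members were higher in the further livers than in the first ones. Of 106 arms with at least 100 reads in each of the 6 livers, mir-26a-5p and mir-26b-5p stood at places 8 and 9 from the highest in the difference of ocm level, with 1.59 and 1.58 on the log2 scale against a median of -0.28. By the size of the difference in either direction they stood at places 17 and 18. For both arms all further livers lay above both first livers, as they did for 30.2% of the arms. Strain and set are balanced in this design. However, set cannot be told apart from the rats used, depth or any difference in library preparation. The same holds for the shortest read, 17 nt in the first livers and 15 nt in the further ones. Only 2 first livers enter, so no test was made.

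The 3p arms were nearly absent among the reads. The paper cautions that small RNAs are captured unequally, so that counts per arm may mislead. Shares and ratios given here are of reads. mir-26a-3p gave 2 reads in BN-Lx brain, 4 in SHR kidney, 1 each in BN-Lx liver 1, SHR spleen and SHR liver 2, and 0 in the other 11 libraries. mir-26b-3p gave 8 and 5 reads in brain, 3 and 4 in liver, 20 and 5 in spleen, 3 and 7 in heart, 0 and 0 in testis and 5 and 12 in kidney, and 24, 13, 41 and 30 in the further livers. As a share of the hairpin's reads, mir-26b-3p ranged from 0.178% in BN-Lx liver (exact 95% interval 0.0366% to 0.518%) to 0.813% in BN-Lx spleen (0.497% to 1.25%) in the tissue set outside testis, and from 0.112% to 0.199% in the further livers. mir-26a-3p reached at most 0.0427%, in SHR kidney (0.0116% to 0.109%). In testis 0 of 53 and 0 of 67 reads came from mir-26b-3p, and the exact 95% intervals allow shares of up to 6.72% and 5.36%.

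The share of the 3p arm was higher for mir-26b than for mir-26a in 10 of the 12 libraries of the tissue set, and both were 0 in the 2 testis libraries. The mean difference was 0.308 percentage points, with p = 0.00195 in an exact permutation test by sign flips over 12 libraries (adjusted over the 6 exact tests, p = 0.0117). The test takes each library as a unit, although the 6 libraries of a strain share an animal, so its p covers these libraries and not a sample of rats. In all 16 libraries the mean difference was 0.267 percentage points. In the edgeR fit mir-26b-3p passed the expression filter and was called in no tissue, and mir-26a-3p did not pass.

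The 5′ ends of both arms were sharply placed. The commonest start was position 16 of the mir-26a hairpin and position 15 of the mir-26b hairpin, which are the starts of the RefSeq mature sequences printed above. In the tissue set 96.2% to 97.9% of mir-26a-5p reads and 96.8% to 98.5% of mir-26b-5p reads began there, and the lowest share was that of SHR testis for mir-26a-5p, with an exact 95% interval of 92.9% to 98.3%. Most others began 1 nt later, 2.09% to 3.78% for mir-26a-5p and 1.47% to 3.12% for mir-26b-5p. In the further livers 99.6% to 99.7% of the reads of either arm began at the commonest start. A read that begins 1 nt later has its seed moved by 1 base.

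The 3′ ends varied more. In the tissue set the mir-26a-5p reads were chiefly of 22, 21 and 19 nt. The 22 nt form, which equals the RefSeq sequence, took 30.1% to 50.7% of the reads, the 21 nt form 27.6% to 39.7% and the 19 nt form 11.5% to 26.5%. A 20 nt form was rare, at 0.827% to 1.72%, so the lengths had a gap between 19 and 21 nt. mir-26b-5p had 1 chief form, the 21 nt RefSeq sequence, with 62.2% to 84.9% of the reads, while 22 nt had 3.77% to 28.9% and 19 nt had 4.33% to 10.4%. In both testis libraries the 19 nt form exceeded the 22 nt form.

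The share of mir-26b-5p reads of 22 nt or more was 13.5% and 15.5% in brain, 15.2% and 13.4% in liver, 12.9% and 20.5% in spleen, 7.43% and 10.6% in heart, 3.77% and 5.97% in testis, and 18.9% and 30.1% in kidney, with BN-Lx first. In the tissue set kidney was highest on average and testis lowest, 19.7 percentage points apart. The shares differed among tissues with p = 0.00972 in the exact permutation test (adjusted p = 0.0278). The further livers, which were not in this test, had 27.3% to 30.6%. With the mean of the 3 livers of a strain, a setting chosen after seeing the data, kidney stayed highest (exact permutation p = 0.0208). The testis shares rest on 2 of 53 and 4 of 67 reads. The exact permutation p was 0.0583 without both testis libraries, 0.0597 without the SHR testis library and 0.0528 without the SHR kidney library, in which the span was 14.0 percentage points.

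For mir-26a-5p the share of reads of 22 nt or more was 37.4% and 43.3% in brain, 50.7% and 45.4% in liver, 36.6% and 48.3% in spleen, 30.1% and 36.0% in heart, 37.4% and 38.7% in testis, and 46.8% and 48.2% in kidney. Heart was lowest and liver highest on average, 14.96 percentage points apart. The difference among tissues had p = 0.0778 in the exact permutation test (adjusted p = 0.117) and passed 0.05 when either spleen library was left out, at p = 0.0333 without BN-Lx spleen and p = 0.0389 without SHR spleen.

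**Figure D4:**
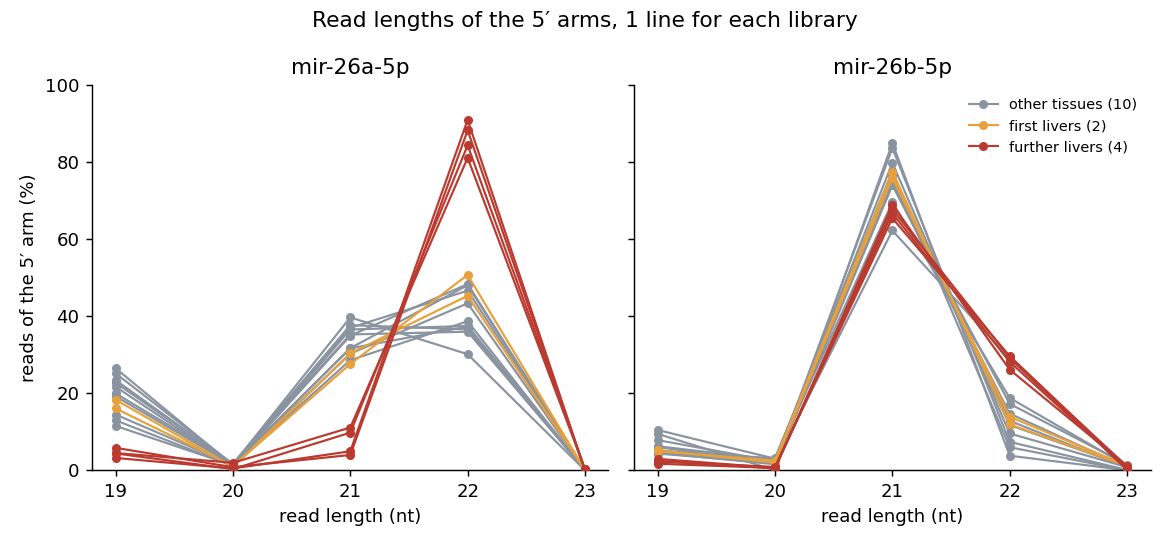
Share of the 5p reads of mir-26a (left) and mir-26b (right) that were 19 to 23 nt long, with 1 line for each of the 16 libraries; red lines are the 4 further livers, orange the 2 first livers and grey the 10 libraries of other tissues. For mir-26a-5p the 22 nt form took 81.1% to 90.9% in the further livers and 30.1% to 50.7% in the others.

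In the further livers the lengths of mir-26a-5p differed from those of the first livers. Reads of 22 nt or more made up 81.4% and 90.9% in BN-Lx livers 2 and 3 and 88.3% and 84.6% in SHR livers 2 and 3, against 50.7% and 45.4% in the first livers of the same strains. The 19 nt form fell within 3.19% to 5.81% there, against 16.03% and 18.29%. For mir-26b-5p reads of 22 nt or more made up 30.6%, 29.3%, 28.8% and 27.3% in the further livers, against 15.2% and 13.4%. The mean length of mir-26a-5p was 0.779 nt greater in the further livers and stood at place 3 from the highest of the 106 arms. That of mir-26b-5p was 0.234 nt greater, at place 35, and the median over all arms was 0.127 nt. For both members the further livers lay above both first livers in mean length, as they did for 55.7% of the arms.

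The share of reads at the commonest start was likewise higher in the further livers, by 2.29 percentage points for mir-26a-5p and 1.97 for mir-26b-5p, against a median of 0.615 over the 106 arms, and 53.8% of the arms had further livers above both first ones in this measure. In the start share and in the share of reads of 22 nt or more, the gap between the sets exceeded that between the strains within a set for both arms. The livers of the tissue set stayed within the range of the other tissues of that set in both measures, except that BN-Lx liver had the highest share of mir-26a-5p reads of 22 nt or more.

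Other arms were compared with the pair by Pearson's r of the TMM-scaled log2 CPM over the 12 libraries, as a description of these libraries, which share their depths and scaling. For mir-26a-5p the 3 highest were mir-27b-5p (r = 0.939), mir-126-3p (r = 0.936), an arm of endothelial cells, and mir-24-1-5p (r = 0.926). Of these mir-126-3p had 37 to 10756 reads a library, whereas mir-27b-5p had at most 32 and mir-24-1-5p at most 71, and both were at 0 reads in the testis libraries. For mir-26b-5p they were mir-30b-5p (r = 0.963), mir-28-5p (r = 0.960) and mir-28-3p (r = 0.932). mir-30b-5p had 291 to 11492 reads a library, some of them divided with other hairpins, and was lowest in brain on the CPM scale, like mir-26b-5p. By contrast mir-28-3p had at most 54 reads and was lowest in testis, with 0 reads in both libraries. In testis mir-28-5p had only 2 reads (BN-Lx) and 4 (SHR). The pair itself had r = 0.796, which put mir-26b-5p at place 24 for mir-26a-5p and mir-26a-5p at place 23 for mir-26b-5p.

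A list of 11 hairpins often used as references in RT-qPCR gave a background of arms taken as even. The list counts 3 mature sequences at 2 hairpins each (mir-24, mir-103 and let-7a), so these are not independent. All 11 were tested, 7 differed among tissues by edgeR against 83.4% of all arms, and 5 were called lower in brain against 23.0%. Their spans between the highest and lowest tissue ran from 1.05 for mir-103-1-3p to 4.31 for mir-16-5p on the log2 scale, with a median of 2.17. With TMM scaling the span of mir-26a-5p exceeded that of 6 of the 11 and that of mir-26b-5p exceeded 7. Their median brain difference was -0.60, and the lowest was -2.16 for mir-423-3p, close to the -2.11 of mir-26b-5p.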

How the data were processed

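Per the labels and methods, RNA was sequenced on SOLiD. Reads were mapped with SHRiMP to hairpins on RGSC3.4 and in miRBase, and the authors deposited estimated counts: perfectly matching reads at each start and end on a hairpin outside the loop, unnormalized, with reads that fit several hairpins divided evenly. Lines with the same position were summed, and positions were assigned to arms (712 arms). Reads were rounded to whole numbers for edgeR 4.0.16 (quasi-likelihood, TMM, filterByExpr, strain as a term across tissues) and DESeq2 1.42.0, run under R 4.3.3. Exact permutation tests used Python 3.11.15 with numpy 2.4.6. They were two-sided for the comparisons of strains and of 3p shares. Across tissues they took the upper tail of the between-tissue sum of squares. Exact 95% intervals (Clopper-Pearson) were used for shares, also where no read was seen. The fits and the exact test across tissues were tried on simulated data with large effects. The simulated spread was not matched to these data. Power for differences of the size seen here was therefore not tested.

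Livers of the strains share replicate numbers. Deviations from the strain means correlated at 0.668, 0.570 and 0.300 for same-numbered livers over 271 arms. These values include the shift between first and further livers, and livers with different numbers were not compared. Whether the numbers pair the livers was therefore not tested. By the study's methods the livers of a strain came from 3 rats and the 6 tissues of a strain from 1 rat. Within a tissue the 2 strains served as replicates, so p-values across tissues rest on 2 animals. Same-strain livers differed beyond sampling noise, so none was counted as a duplicate.

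Named arms were the 4 arms of the pair, the 3 arms most like each 5p arm by Pearson's r, and the RT-qPCR list. The members and lists were chosen with earlier results of these data known. Alternatives changed the tool, scaling, filter, block and libraries. The list of piRNA clusters was not used here. Genome coordinates are not given here.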

Additional observations from a re-analysis of the deposited data

How the results depend on the processing

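Neither arm was called between the strains under any alternative. Without single livers the liver difference (SHR minus BN-Lx) ran from -0.27 to 0.57 for mir-26a-5p, turning negative without BN-Lx liver 1 (-0.21), SHR liver 2 (-0.08) or SHR liver 3 (-0.27), and from -0.31 to 0.47 for mir-26b-5p, turning negative without BN-Lx liver 1 (-0.31), SHR liver 2 (-0.31) or SHR liver 3 (-0.19). For mir-26b-5p it was also negative with the replicate block (-0.0397), with the library set as a term (-0.0401, chosen after seeing the data), and scaled by the ocm (-0.0459) or total reads (-0.0215). The replicate block changed no call in the fits. With this block the liver log2 ratio differed by 0.06 (exact p = 1, sign flips). That test has only 3 pairs and cannot reach 0.05, so it could make no call. Single livers left out gave -0.0437 to 0.145 for the ratio, the lowest without SHR liver 3. Reversed tissue values, none called, were those of mir-26a-5p in brain scaled by the ocm (0.0368) or total reads (0.29), in liver scaled by total reads (-0.30), in brain against spleen scaled by the ocm (0.23), and in spleen with DESeq2 or RLE factors (-0.12 each), the ocm (-0.24), total reads (-0.26) or no testis (-0.14). Without both testis libraries mir-26a-5p was called lower in brain (-0.88, adjusted p = 0.0117) and its difference among tissues had an adjusted p of 0.052, against 0.101 scaled by the ocm. The cause of these changes was not tested.

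The span of the log2 ratio was 0.68 without brain, and with single libraries left out 1.80 to 2.23. The span of mir-26b-5p reads of 22 nt or more was 15.5 points without testis and 14.0 to 25.3 with single libraries left out. That of mir-26a-5p was 12.01 to 17.91 with single libraries left out and 40.5 (exact permutation p = 0.0167) with the mean of 3 livers, a setting chosen after seeing the data that mixes the liver sets. Arms called among tissues numbered 381, and 324 to 404 under the alternatives. The 3p difference was 0.263 to 0.336 points with single libraries left out. Depth limits the 3p arms and testis.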
